A study of Mus musculus with 18 samples.

Results

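The cilia genes of the mouse hippocampus were taken as the 59 of 15329 listed genes whose symbols start with Ift, Bbs, Dnah, Rsph, Cfap or Tekt followed by a digit, and were described in untrained and trained mice, WT or KO for *Ccny*. By symbol, 37 were classed as motile axoneme genes (17 Cfap, 10 Dnah, 6 Rsph and 4 Tekt genes). The other 22 were classed as genes of the transport machinery of cilia (14 Ift and 8 Bbs genes). The classes follow the symbols, and the place of each protein was not checked. None of the 59 was at 0 in any library, and all 59 were tested. RNA was sequenced from hippocampi of male C57BL/6J mice aged 8 to 10 weeks, in 6 groups of 3 mice with 1 library per mouse. WT_Basal and KO_Basal mice were untrained, WT_OL and KO_OL mice had completed original learning in the Morris water maze, a pool with a hidden platform, and WT_RL and KO_RL mice had completed original learning and then reversal learning, in which the platform was moved. The comparisons asked which cilia genes differed with training within a genotype, with genotype within a training state, and whether a training change differed between genotypes. How the *Ccny* allele was made is not given in the sources used here.

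Cilia are built on a microtubule axoneme. In motile cilia the dynein heavy chains of the Dnah genes drive beating, radial spoke proteins of the Rsph genes pass signals from the central pair, and tektins (Tekt) and many Cfap proteins are part of or bound to the axoneme. All cilia are built by intraflagellar transport, in which complex B (for example *Ift20*, *Ift57*, *Ift74*, *Ift81*, *Ift88* and *Ift172*) carries cargo towards the tip and complex A (for example *Ift122* and *Ift140*) returns it, while the BBSome of the Bbs proteins moves membrane proteins out of cilia. In the brain, tufts of motile cilia stand on ependymal cells that line the ventricles beside the hippocampus, whereas neurons and astrocytes each carry a single primary cilium. *Foxj1*, the transcription factor of the motile cilia programme, marks ependymal cells.

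The 18 libraries held 29248557 to 37915576 reads on listed genes, and 1 read was worth 0.0274 to 0.0333 CPM (reads scaled to a common library size by the authors). Levels are given as CPM, and differences as log2 fold changes on the scale of log2(CPM + 1), which understates the change of low genes. *Ccny* lay between 74.0 and 95.8 CPM in the KO libraries and between 107 and 158 CPM in the WT libraries, without overlap. Markers of hippocampal neurons summed to 2053 to 3314 CPM. The 15 markers of choroid plexus epithelium, the secretory tissue of the ventricles, summed to 52.3 to 8889 CPM per library. KO_Basal 1, KO_Basal 3 and WT_RL 1 stood apart with under 100 CPM, while the other 15 libraries had at least 711 CPM. The 14 markers of ependymal cells summed to 45.6 to 124 CPM, and none of the markers of either list was at 0 in a library. In whole tissue, fewer cells of a type and less RNA per cell cannot be told apart.

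Promoter sequences were compared because RFX factors and *Foxj1* are known to bind promoters of cilia genes. Windows of 300 bases (250 bases before to 50 bases after the start site, RefSeq, GRCm38.p6) were matched for 52 of the 59 members. No sequence was matched for *Ift122*, *Cfap97*, *Cfap53*, *Rsph4a*, *Ift80*, *Rsph1* and *Ift81*. The letters GTTGCC, an arm of the RFX site, were found on either strand in 36.4% of the 33 motile axoneme genes and in 42.1% of the 19 transport genes, against 14.1% of all 27025 genes. The paired RFX letters, GTTNCC followed 2 bases on by GGNAAC, were found in 1 transport gene, *Bbs7*, and in 0.529% of all genes, and each such pair with GTTGCC also counts as a single arm. The forkhead letters TGTTTAC were found in 2 motile axoneme genes, *Cfap20* and *Cfap43*, that is 6.06%, against 4.05% of all genes. A match is a description of the letters in these windows and no evidence of binding. For the promoters of 4 members described below, the RFX letters are shown in capitals on the strand of the gene. *Tekt1* (chr11:72361833-72362132, minus strand) holds 2 single arms close to its start and its other annotated start holds none. *Dnah10* (chr5:124724835-124725134, plus strand) holds 2 single arms, *Bbs7* (chr3:36613340-36613639, minus strand) the pair, and *Ift172* (chr5:31291065-31291364, minus strand) a single arm.
Tekt1: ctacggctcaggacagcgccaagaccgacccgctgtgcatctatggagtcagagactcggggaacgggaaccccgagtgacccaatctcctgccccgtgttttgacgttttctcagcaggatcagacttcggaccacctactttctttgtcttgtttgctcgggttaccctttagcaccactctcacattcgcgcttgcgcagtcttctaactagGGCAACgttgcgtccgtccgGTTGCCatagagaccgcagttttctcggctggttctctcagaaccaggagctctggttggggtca
Dnah10: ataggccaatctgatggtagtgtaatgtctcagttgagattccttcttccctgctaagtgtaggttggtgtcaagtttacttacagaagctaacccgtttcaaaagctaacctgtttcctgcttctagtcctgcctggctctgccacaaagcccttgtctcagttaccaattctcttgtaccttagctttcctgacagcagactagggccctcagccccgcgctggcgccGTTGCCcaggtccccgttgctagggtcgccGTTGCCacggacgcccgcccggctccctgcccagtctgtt
Bbs7: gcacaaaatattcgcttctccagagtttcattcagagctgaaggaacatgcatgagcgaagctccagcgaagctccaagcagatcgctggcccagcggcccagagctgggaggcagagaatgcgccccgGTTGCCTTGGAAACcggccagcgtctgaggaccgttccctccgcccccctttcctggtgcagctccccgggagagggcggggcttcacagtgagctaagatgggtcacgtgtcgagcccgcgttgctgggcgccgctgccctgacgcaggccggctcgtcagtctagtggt
Ift172: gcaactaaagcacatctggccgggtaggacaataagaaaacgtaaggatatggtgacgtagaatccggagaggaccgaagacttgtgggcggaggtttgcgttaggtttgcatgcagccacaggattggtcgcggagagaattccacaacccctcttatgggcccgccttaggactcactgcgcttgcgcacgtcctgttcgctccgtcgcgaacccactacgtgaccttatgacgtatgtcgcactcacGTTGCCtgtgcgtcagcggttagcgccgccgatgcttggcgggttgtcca

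Motile axoneme genes were expressed at lower levels than transport genes. The mean over the 18 libraries ran from 0.40 to 100.6 CPM, with a median of 5.07 CPM, for the motile axoneme genes and from 5.15 to 63.3 CPM, with a median of 30.6 CPM, for the transport genes. Per kilobase of transcript, the medians were 0.850 and 9.38 CPM per kb. The dynein heavy chains had the lowest median per kilobase, 0.468 CPM per kb. The motile axoneme genes with the highest levels per kilobase were *Cfap36*, which encodes a protein that binds the small GTPase *Arl3*, at 60.5 CPM per kb, the radial spoke head gene *Rsph9* at 16.8, *Cfap97* at 8.49 and *Cfap20*, which encodes a part of the inner junction of axonemal doublets, at 8.43. Among transport genes they were *Ift20* at 36.2 CPM per kb, *Ift57* at 18.1, the BBSome subunit gene *Bbs4* at 16.9 and *Ift74* at 13.6. Of the motile axoneme genes, 6 had a mean under 1 CPM, and the fewest reads of a motile axoneme gene in a library were 6, against 96 for a transport gene. Exons of 20 members overlap those of another gene. Reads of these members are uncertain, since the strand setting of the count was not stated, as are reads split between the near-identical genes *Dnah7a* and *Dnah7b* and between *Rsph3a* and *Rsph3b*.

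The motile axoneme genes varied together between mice, and much of that variation lay within groups. In WT_RL 3, 15 of the 37 had their highest level of the 18 libraries, and in KO_RL 1 a further 7 did. KO_Basal 3 held the lowest level of 10, WT_RL 2 of 7 and WT_RL 1 of 5. *Dnah6*, an inner arm dynein heavy chain, showed the span: it was at 4.97, 4.27 and 20.8 CPM in the 3 WT_RL mice and at 15.1, 6.02 and 8.97 CPM in the KO_RL mice. *Rsph4a*, a radial spoke head gene, was at 7.41, 3.68 and 17.1 CPM in WT_RL and 14.1, 6.99 and 8.43 CPM in KO_RL. In both genes 1 mouse per group was far above the other 2. Over the 18 libraries, the median Pearson correlation of log2 values was 0.386 among the 666 pairs of motile axoneme genes, 0.034 among the 231 pairs of transport genes and 0.045 between the classes, against -0.003 among all pairs of listed genes. These pairs share libraries and depth. A correlation over 0.5 was seen in 42.3% of motile axoneme pairs, 12.6% of transport pairs and 11.9% of all pairs. The heat map of 59 genes shows the motile axoneme genes in columns of 1 colour, and the transport genes as pale rows.

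**Figure D1:**
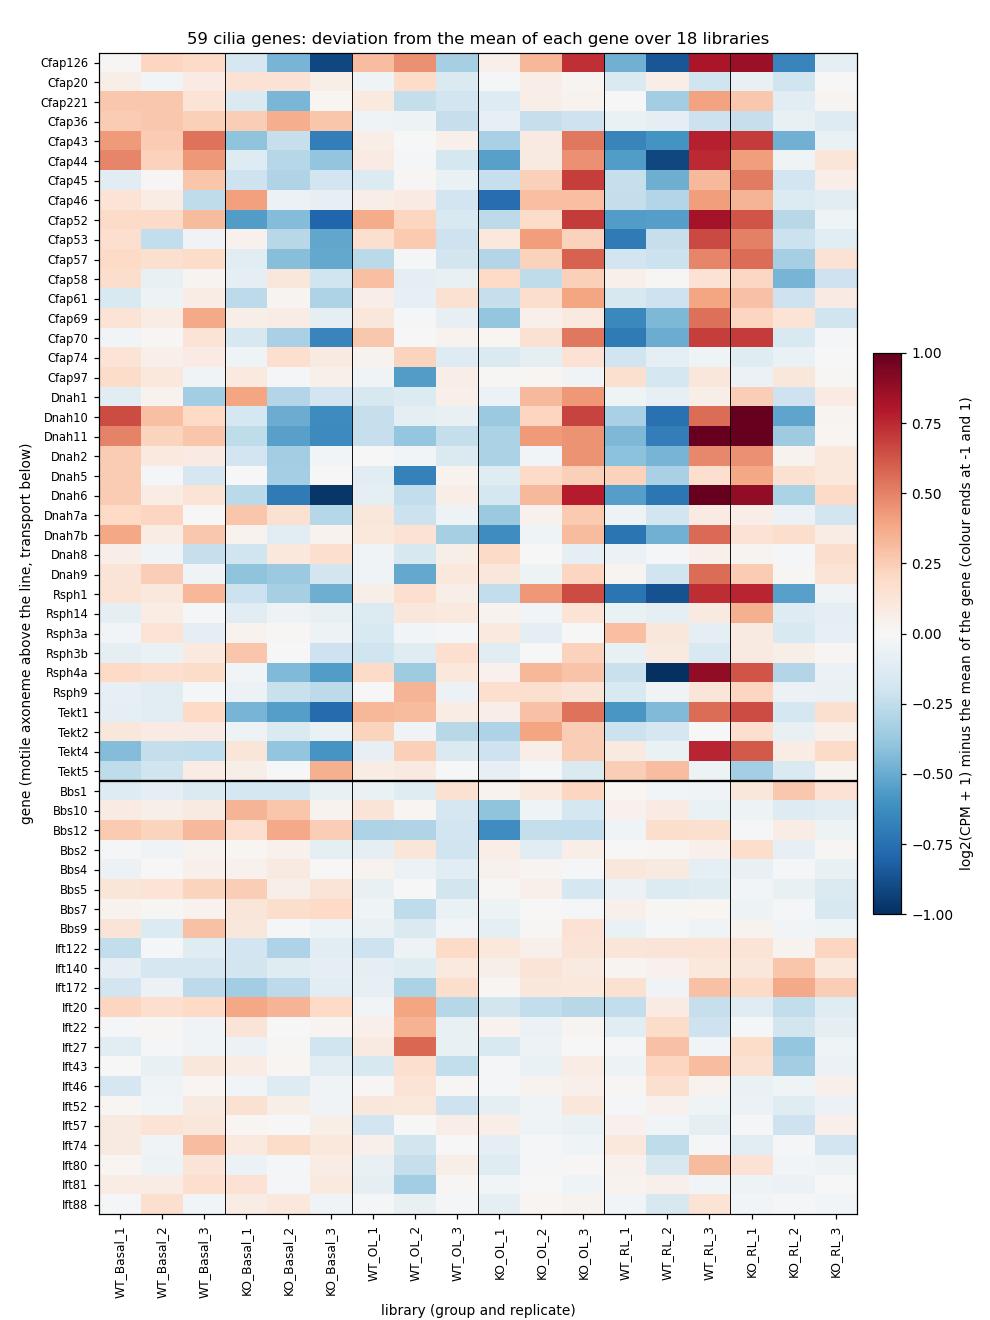
Deviation of each of the 59 cilia genes (rows) from its own mean over 18 libraries (columns, 3 per group), as log2(CPM + 1), with red above and blue below the mean. Most motile axoneme genes, above the line, were high together in KO_OL 3, WT_RL 3 and KO_RL 1 and low together in the 3 KO_Basal libraries, WT_RL 1 and 2, KO_RL 2 and KO_OL 1, whereas transport genes, below the line, deviated less.

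Many motile axoneme genes followed the level of *Foxj1*. *Foxj1* was at 20.5, 17.7 and 23.0 CPM in WT_Basal, 13.5, 13.5 and 10.1 CPM in KO_Basal, 17.9, 20.3 and 16.1 CPM in WT_OL, 18.6, 22.1 and 29.7 CPM in KO_OL, 11.5, 13.6 and 38.1 CPM in WT_RL and 33.5, 11.9 and 15.6 CPM in KO_RL. Its 3 highest libraries were thus WT_RL 3, KO_RL 1 and KO_OL 3. The same 3 libraries had the largest sums of choroid plexus markers, 8889, 5317 and 4887 CPM. No correlation with these sums was computed, and their part in the values below was not tested. Pearson's r with *Foxj1* over the 18 libraries was over 0.7 for 17 of the 37 motile axoneme genes, that is 45.9%, and for 0 of the 22 transport genes, against 4.15% of all genes, and the medians were 0.63, 0.08 and -0.03. Spearman's rho had medians of 0.62 and 0.07 in the 2 classes. Without the 2 libraries farthest from the median of *Foxj1*, WT_RL 3 and KO_RL 1, r was over 0.7 for 13 motile axoneme genes, against 2.44% of all genes. With the group means removed it was over 0.7 for 19 of the 37 motile axoneme genes. The same held for 1 of the 22 transport genes, *Ift43*, and for 7.71% of all genes. The values of r were highest for *Cfap52* (0.93), a microtubule inner protein gene, *Cfap70* (0.93), *Cfap126* (0.93), *Dnah6* (0.92), *Cfap43* (0.92), *Rsph1* (0.92), *Dnah11* (0.89) and *Tekt1* (0.89), and they were negative for 6, among them *Tekt5* (-0.59), *Cfap36* (-0.44) and *Cfap20* (-0.12). Of the other axonemal dyneins, r was 0.86 for *Dnah10*, 0.27 for *Dnah5*, an outer arm heavy chain, and -0.15 for *Dnah8*. These correlations describe libraries that share depth and tissue composition, and they carry no p-value.

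**Figure D2:**
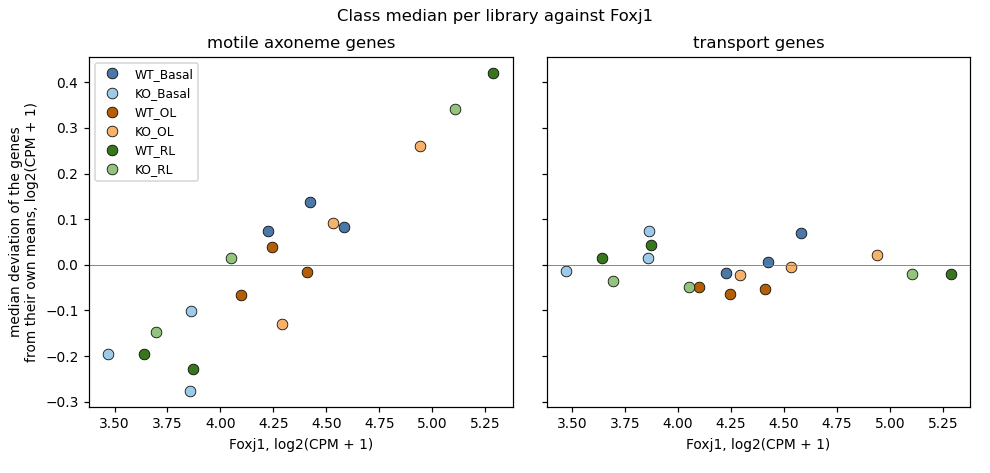
Median deviation of the 37 motile axoneme genes (left) and of the 22 transport genes (right) from their own means, plotted for each of 18 libraries against *Foxj1*, both as log2(CPM + 1). The motile median ran from -0.28 to 0.42 and was highest in the 3 libraries with the most *Foxj1*, whereas the transport median stayed between -0.06 and 0.07.

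In untrained mice, levels of many motile axoneme genes in KO lay below those in WT, and none of these differences passed the test. In KO_Basal against WT_Basal, 29 of 37 motile axoneme genes had a negative fold change, with a median of -0.19 against 0.01 over all genes, and in 19 of 37 all 3 KO mice lay below all 3 WT mice, which happened for 7.67% of all genes. No motile axoneme gene had all KO mice above all WT mice, against 7.05% of all genes. At an adjusted p under 0.05 (limma, Benjamini-Hochberg over 15329 genes), 0 members were called in either class, and 0 also with voom on recovered reads. Of all genes 0.013% were called higher and 0.00652% lower. At an unadjusted p under 0.05 there were 8 motile axoneme genes, 7 of them lower, and 0 transport genes, against 613 of all 15329 genes.

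*Cfap43*, which is required for the axonemes of motile cilia, was at 6.76, 5.89 and 7.42 CPM in WT_Basal and 3.37, 3.92 and 2.57 CPM in KO_Basal, with a log2 fold change of -0.85 ± 0.33 (SE). *Cfap52* was at 5.29, 5.30 and 5.86 CPM in WT_Basal and 2.73, 3.07 and 2.18 CPM in KO_Basal, with -0.83 ± 0.32 (SE). In both genes each KO mouse was below each WT mouse. *Dnah11*, an outer arm heavy chain whose loss in humans causes primary ciliary dyskinesia, was at 5.26, 4.20 and 4.39 CPM and 2.73, 2.06 and 1.85 CPM, with -0.81 ± 0.39, and its groups did not overlap. *Dnah9*, another outer arm heavy chain and the most abundant Dnah gene here, was at 24.9, 27.0 and 22.1 CPM and 16.9, 17.2 and 19.8 CPM, with -0.43 ± 0.17, again without overlap. For these 4 genes the adjusted p (limma) was 0.994. With the libraries of the comparison fitted alone, it was 0.0992, 0.0616, 0.0992 and 0.162 (limma) in the order given, and none was called. Exons of *Cfap43* overlap *Itprip* and *Gm22240* on the same strand, and those of *Cfap52*, *Dnah9* and *Dnah11* overlap *9130017K11Rik*, *Gm12296* and *Cdca7l* on the other strand.

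In 2 of 6 radial spoke genes and 2 of 4 tektin genes all KO mice lay below all WT mice. *Rsph1* was at 8.32, 8.16 and 9.71 CPM in WT_Basal and 6.33, 5.76 and 5.04 CPM in KO_Basal, and *Rsph4a* at 10.2, 9.99 and 10.1 CPM and 8.62, 6.20 and 5.66 CPM. *Tekt1* was at 4.26, 4.23 and 5.48 CPM and 3.08, 2.85 and 2.31 CPM, with -0.59 ± 0.25. In these 3 genes the groups did not overlap. *Cfap44* was at 10.9, 8.93 and 10.5 CPM and 6.74, 5.95 and 5.47 CPM, and *Cfap126*, which takes part in the positioning of basal bodies, at 4.53, 5.36 and 5.25 CPM and 3.88, 2.98 and 1.92 CPM. Both were below in every KO mouse. *Tekt2*, under 1 CPM here, was at 0.832, 0.799 and 0.796 CPM and 0.636, 0.538 and 0.618 CPM, also without overlap. The groups overlapped in the remaining radial spoke and tektin genes. *Tekt5* had the largest positive fold change of the members, 0.27 ± 0.13 (SE), at 7.42, 7.76 and 9.58 CPM in WT_Basal and 9.51, 9.05 and 11.9 CPM in KO_Basal, with overlap. *Dnah5* was at 10.6, 8.59 and 7.64 CPM and 8.65, 6.65 and 8.69 CPM, *Rsph9* at 15.1, 14.8 and 15.9 CPM and 15.4, 13.6 and 13.3 CPM, and *Tekt4* at 0.799, 1.07 and 1.05 CPM and 1.65, 0.855 and 0.618 CPM. In *Dnah5*, *Rsph9* and *Tekt4* the groups also overlapped.

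Markers of ependymal cells and of choroid plexus moved with these values. Of the 14 ependymal markers 12 had a negative fold change in KO_Basal, with a median of -0.40, 0 were called, and their sum was 81.2 to 86.8 CPM in WT_Basal and 45.6 to 71.9 CPM in KO_Basal. Of the 15 choroid plexus markers 15 had a negative fold change, with a median of -2.54, and 0 were called. Their sum was 923 to 4590.1 CPM in WT_Basal and 60.8 to 711 CPM in KO_Basal. At an unadjusted p under 0.05 (limma), 3 of the 14 ependymal and 15 of the 15 choroid plexus markers were lower. Of all 15329 genes 613 passed it in either direction. Their part in the motile axoneme values was not tested. With KO_Basal 1, KO_Basal 3 and WT_RL 1 left out, a choice made after the values were seen, KO_Basal 2 alone stood for its group. *Cfap43*, *Cfap52*, *Dnah11* and *Dnah9* then had log2 fold changes of -0.64, -0.67, -0.87 and -0.49. KO_Basal 2, at 711 CPM of choroid plexus markers, was still below every WT_Basal mouse. This fit therefore cannot show whether the values depend on those markers. Transport genes centred on 0 in this comparison, with a median of -0.01. *Bbs7*, a BBSome subunit gene, was at 20.7, 20.4 and 20.8 CPM in WT_Basal and 22.2, 23.0 and 23.4 CPM in KO_Basal and was the single transport gene with all KO mice above. *Ift57* was the single one with all KO mice below, at 50.1, 51.8 and 50.8 CPM and 47.8, 47.1 and 49.1 CPM. Neither was called, and 1 of 22 each way stood beside 7.05% of all genes above and 7.67% below.

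**Figure D3:**
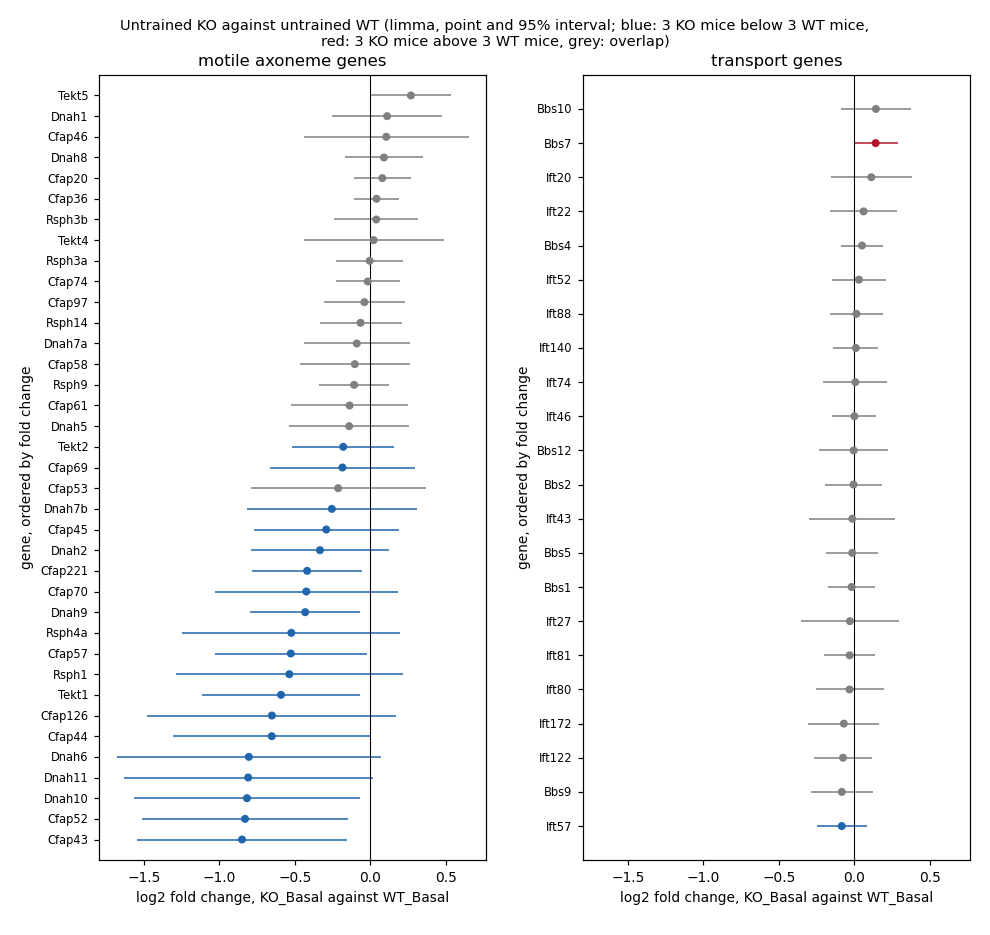
Log2 fold change (x axis) of each cilia gene (y axis) in KO_Basal against WT_Basal with its 95% interval from limma, coloured by whether the 3 KO mice lay below (blue) or above (red) the 3 WT mice or overlapped with them (grey). Of the motile axoneme genes (left) 19 are blue and reach -0.85, whereas the transport genes (right) lie between -0.08 and 0.14.

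After original learning in WT mice 1 gene of each class was called, and both fell. In WT_OL against WT_Basal, 0 motile axoneme genes rose and 1 fell, and 0 transport genes rose and 1 fell, whereas 3.88% of all genes rose and 5.62% fell. *Cfap36* was at 119, 120.4 and 118 CPM in WT_Basal and 96.5, 96.0 and 84.7 CPM in WT_OL, so that every trained mouse was below every untrained one. It fell with a log2 fold change of -0.36 ± 0.07 (SE), adjusted p = 0.00439 (limma). *Bbs12*, which encodes a chaperonin-like protein that assembles the BBSome, was at 6.26, 6.06 and 6.59 CPM and 3.89, 3.92 and 4.31 CPM, also without overlap, and fell with -0.54 ± 0.11 (SE), adjusted p = 0.0063 (limma). Exons of *Bbs12* overlap *Gm43439* on the same strand and *Cetn4* on the other. Neither call remained when each library was corrected for the GC content of transcripts (log2 fold changes of -0.26 and -0.37, adjusted p of 0.147 and 0.0859) or with the 6 libraries of the comparison fitted alone (adjusted p of 0.0978 and 0.0685).

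The other members in WT mice gave no call. The fold changes had medians of -0.10 for the motile axoneme and -0.08 for the transport genes, against 0.00 over all genes. In 9 of 37 motile axoneme genes and 5 of 22 transport genes all trained mice lay below all untrained mice, against 15.2% of all genes, and in 1 and 0 all lay above, against 13.1%. *Bbs5*, a BBSome subunit gene, was at 16.8, 17.1 and 18.1 CPM in WT_Basal and 14.5, 15.3 and 13.5 CPM in WT_OL. Its log2 fold change was -0.25, with an adjusted p of 0.064 (limma). With GC content corrected it was -0.0031 (adjusted p of 0.993, limma), and with CPM floored at 1 the gene was called (-0.27, 0.0367). The WT_OL mice differed among themselves in several transport genes. *Ift20*, a complex B subunit that also works at the Golgi, was at 40.7, 55.1 and 34.0 CPM in the 3 WT_OL mice, against 48.5, 46.9 and 47.9 CPM in WT_Basal, so that WT_OL 2 lay above and the other 2 below every untrained mouse. Without WT_OL 2 it fell by 0.35 on the log2 scale, with an adjusted p of 0.0471 (limma). Without WT_OL 3 a further complex B gene, *Ift81*, fell by 0.32 on that scale, with 0.0135. For each gene that was the 1 of 6 libraries whose omission gave a call. With GC content corrected the log2 fold changes were -0.14 for *Ift20* and -0.089 for *Ift81*, and neither was called. With CPM floored at 1 *Ift81* was called (-0.25, adjusted p of 0.0483, limma).

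After original learning in KO mice 10 of the 59 genes were called, and most of these were transport genes. In KO_OL against KO_Basal, 2 of 37 motile axoneme genes rose and 1 fell. Of the 22 transport genes 4 rose and 3 fell, whereas 11.2% of all genes rose and 12.3% fell. The motile axoneme shares were thus below those of all genes, and the transport shares were not. Non-overlapping groups were seen in 10 motile axoneme genes above and 2 below and in 5 transport genes above and 6 below, against 24.2% and 24.6% of all genes. Of the motile axoneme genes 28 of 37 had a positive fold change, with a median of 0.27 against -0.01 over all genes, and the transport genes had a median of -0.04.

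*Tekt1*, a tektin gene of the axonemal doublets, was at 3.08, 2.85 and 2.31 CPM in KO_Basal and 4.91, 5.90 and 7.24 CPM in KO_OL, with every trained mouse above. It rose with a log2 fold change of 0.90 ± 0.25 (SE), adjusted p = 0.0156 (limma), but not without KO_Basal 3 (0.81, adjusted p of 0.0564) or without KO_OL 3 (0.77, 0.0727). *Rsph9* was at 15.4, 13.6 and 13.3 CPM and 18.2, 18.1 and 17.7 CPM and rose with 0.34 ± 0.11 (SE), adjusted p = 0.0351 (limma). That call ended without any 1 of 5 of the 6 libraries (KO_Basal 2 or 3, or KO_OL 1, 2 or 3), with adjusted p of 0.0768 to 0.106. *Cfap36* was at 118, 128 and 121 CPM and 94.2, 84.6 and 86.2 CPM and fell with -0.47 ± 0.07 (SE), adjusted p = 0.000256 (limma), and it was called under each of its 14 alternatives.

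Other genes of the motile axoneme had fold changes of like size with wider errors than that of *Tekt1*. *Dnah6* was at 6.23, 4.34 and 3.45 CPM in KO_Basal and 6.72, 9.94 and 14.1 CPM in KO_OL, with 0.96 ± 0.41 (SE) and an adjusted p of 0.103 (limma). *Cfap126* was at 3.88, 2.98 and 1.92 CPM and 4.69, 5.93 and 8.11 CPM, with 0.89 ± 0.39, and *Cfap52* at 2.73, 3.07 and 2.18 CPM and 3.59, 5.25 and 7.96 CPM, with 0.80 ± 0.32. In these 3 genes the trained mice lay above the untrained ones, and none was called. *Rsph1* was at 6.16, 10.5 and 12.4 CPM and *Dnah11* at 2.58, 4.97 and 5.08 CPM in KO_OL, each overlapping with KO_Basal in at least 1 mouse. Fitted on the 6 libraries of the comparison alone, 12 motile axoneme genes were called in place of 3, 11 higher and 1 lower, and of all genes 17.7% were called higher and 16.8% lower. The choroid plexus markers rose in this comparison, 15 of 15, with a median of 3.04 and sums of 60.8 to 711 CPM in KO_Basal and 2542 to 4887 CPM in KO_OL. KO_Basal 2, at 711 CPM, was below every KO_OL mouse. Leaving out the other KO_Basal libraries, as below, therefore does not even out these markers. Of the 14 ependymal markers 11 had a positive fold change, with a median of 0.36, 0 were called, and their sum was 61.5 to 117 CPM in KO_OL. Their part in the motile axoneme values was not tested. With the 3 libraries low in choroid plexus markers left out, KO_Basal 2 alone stood for its group, its spread was assumed to be like that of the other groups, and 1.75% of all genes were called higher and 3.29% lower. In that fit *Cfap36* was the 1 motile axoneme gene called, and *Tekt1* and *Rsph9* had log2 fold changes of 0.85 and 0.38.

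Of the transport genes, 2 of complex A and 1 of complex B rose together with *Bbs1*. *Bbs1*, a BBSome subunit gene, was at 47.3, 47.3 and 50.7 CPM in KO_Basal and 55.0, 57.4 and 62.3 CPM in KO_OL, with 0.26 ± 0.07 (SE), adjusted p = 0.0178 (limma). *Ift122*, of complex A, was at 33.2, 30.5 and 34.9 CPM and 40.9, 39.4 and 41.6 CPM, with 0.30 ± 0.09 (SE), adjusted p = 0.025 (limma). In both genes all trained mice lay above all untrained mice. *Ift140*, also of complex A, was at 27.5, 28.8 and 29.3 CPM and 32.7, 34.5 and 33.5 CPM, with 0.23 ± 0.07 (SE), adjusted p = 0.028 (limma). *Ift172*, a peripheral complex B subunit, was at 40.7, 43.2 and 48.0 CPM and 52.5, 56.4 and 55.8 CPM, with 0.32 ± 0.11 (SE), adjusted p = 0.0473 (limma). These 2 also did not overlap. All 4 calls ended without KO_Basal 1 (adjusted p of 0.0658, 0.0606, 0.102 and 0.165), without KO_Basal 2 (0.0629, 0.104, 0.0629 and 0.114) and without KO_OL 3 (0.0916, 0.0814, 0.0737 and 0.119). *Ift122*, *Ift140* and *Ift172* were also lost without KO_OL 1, and *Ift140* and *Ift172* without KO_OL 2. With CPM floored at 1, the scale that the study's methods describe, *Ift172* was not called (adjusted p of 0.0591), and *Bbs7* was called lower (-0.20, adjusted p of 0.0206), as it was with genes under a mean of 1 CPM left out (-0.19, 0.0486).

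The 3 transport genes that fell were *Bbs12*, *Ift20* and *Bbs10*. *Bbs12* was at 5.82, 6.87 and 6.18 CPM in KO_Basal and 2.94, 4.14 and 4.09 CPM in KO_OL, with -0.63 ± 0.11 (SE), adjusted p = 0.000709 (limma). *Ift20* was at 54.7, 52.8 and 47.9 CPM and 36.6, 35.0 and 34.1 CPM, with -0.54 ± 0.13 (SE), adjusted p = 0.00619 (limma). *Bbs10*, another chaperonin-like gene of BBSome assembly, was at 7.09, 6.74 and 5.56 CPM and 3.83, 5.22 and 4.66 CPM, with -0.42 ± 0.11 (SE), adjusted p = 0.0108 (limma). In all 3 every trained mouse was below every untrained mouse. *Bbs12* and *Ift20* were called without any 1 of the 6 libraries of the comparison. *Bbs10* was not called without KO_Basal 1 (adjusted p of 0.0568, limma) or KO_OL 1 (0.0640). With the 3 libraries low in choroid plexus markers left out, so that KO_Basal was 1 library, *Bbs12* was the 1 transport gene called. The log2 fold changes of the others were then -0.57 for *Ift20*, -0.48 for *Bbs10*, 0.29 for *Bbs1*, 0.40 for *Ift122*, 0.22 for *Ift140* and 0.34 for *Ift172*. *Bbs4* was at 65.3, 67.3 and 63.6 CPM in KO_Basal and 65.3, 64.6 and 62.4 CPM in KO_OL, and *Ift88*, of the complex B core, at 19.7, 20.2 and 18.2 CPM and 17.4, 18.9 and 19.2 CPM, with overlap in both.

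**Figure D4:**
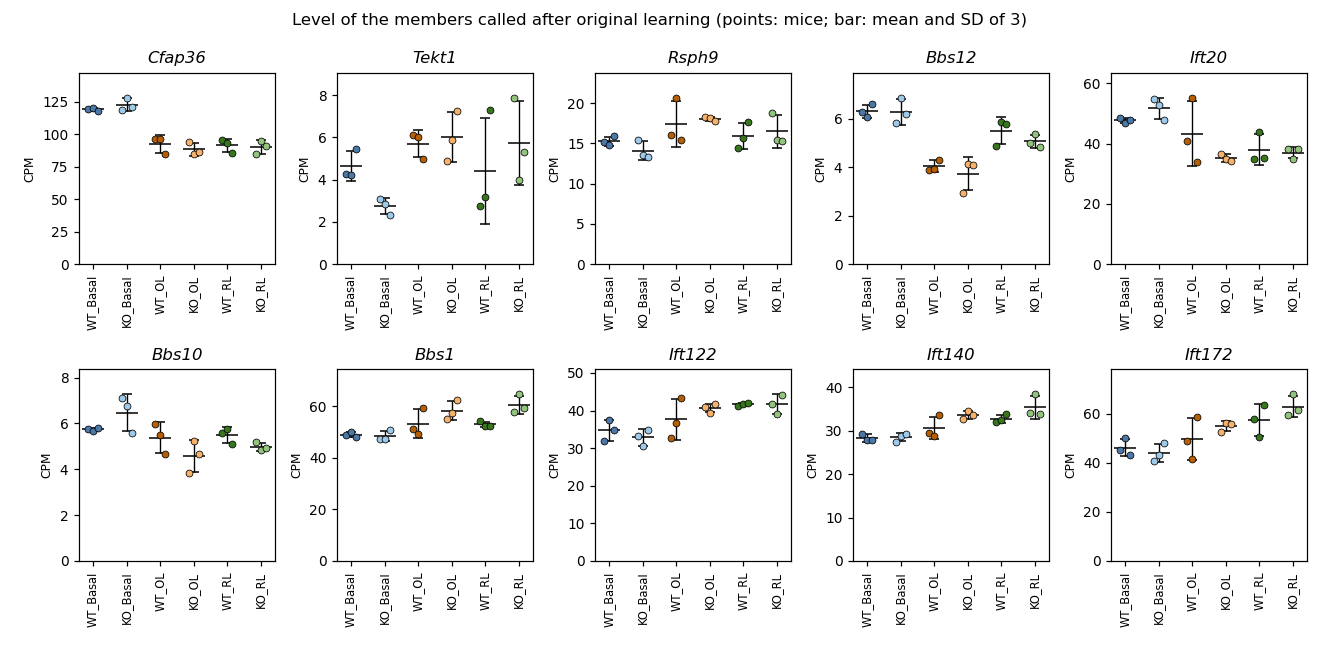
CPM of the 10 members called after original learning in at least 1 genotype, for each of 18 mice (points) with the mean and SD of the 3 mice of a group (bars), on axes that start at 0. *Cfap36* and *Bbs12* are lower in WT_OL and KO_OL than in the untrained groups, *Ift20* and *Bbs10* are lower in KO_OL than in KO_Basal, and *Tekt1*, *Rsph9*, *Bbs1*, *Ift122*, *Ift140* and *Ift172* are higher in KO_OL than in KO_Basal.

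The direction of the transport calls went with the GC content of the transcripts. The 4 genes that rose had a GC content of 51.7% to 53.3%, and the 3 that fell of 42.7% to 48.1%. Over the 22 transport genes, the correlation of GC content with the log2 fold change was 0.53 in KO_OL against KO_Basal and 0.68 in WT_OL against WT_Basal. Over the 37 motile axoneme genes it was 0.10 and 0.46. Genes are not independent replicates, and these values carry no p-value. No such correlation was computed over all genes, so these values are not shown to be particular to the members. With each library corrected for GC content, 3 transport genes (*Bbs12*, *Ift20* and *Bbs10*) were called in place of 7. The shares of all genes called were then 6.77% higher and 7.43% lower, in place of 11.2% and 12.3%. *Bbs1*, *Ift122*, *Ift140* and *Ift172* had log2 fold changes of 0.19, 0.22, 0.16 and 0.23 after the correction. Of the motile axoneme calls, *Tekt1* and *Cfap36* remained, and *Rsph9* did not (0.24, adjusted p of 0.105).

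**Figure D5:**
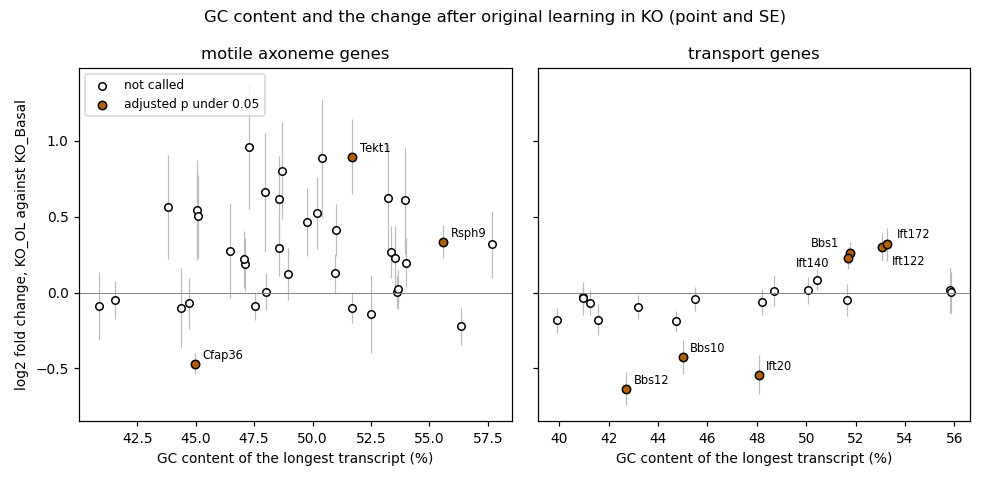
Log2 fold change with its SE in KO_OL against KO_Basal (y axis) against GC content of the longest transcript (x axis, %) for the motile axoneme genes (left) and the transport genes (right), with members at an adjusted p under 0.05 filled and named. Among transport genes the 4 filled points above 0 lie at 51.7% to 53.3% GC and the 3 below 0 at 42.7% to 48.1%.

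No member differed between the genotypes in its change with original learning at an adjusted p under 0.05, and 0% of all genes were called higher or lower in that difference. Members called with voom on recovered reads were not counted for differences of this kind. *Dnah9*, *Tekt1* and *Ift20* were called under 0 of their 19 alternatives, voom among them. At an unadjusted p under 0.05 there were 6 motile axoneme genes, 5 of them positive, and 1 transport gene, against 12.4% of all genes. *Dnah9* had the smallest p of the members: it was at 22.0, 15.5 and 24.4 CPM in WT_OL and 24.6, 21.8 and 26.4 CPM in KO_OL, and its change in KO minus that in WT was 0.67 ± 0.24 (SE), with a 95% interval of 0.16 to 1.19 and an adjusted p of 0.388 (limma). For *Tekt1*, which was called in KO and not in WT mice, the difference was 0.65 ± 0.35 (SE), with an interval of -0.09 to 1.39, and for *Ift20* it was -0.37 ± 0.18 (SE), with -0.75 to 0.01. The calls in KO mice were therefore not shown to be particular to them.

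Reversal learning gave no call among the members in either genotype. In WT_RL against WT_OL, where 0.104% of all genes rose and 0.157% fell, 0 motile axoneme and 2 transport genes had an unadjusted p under 0.05, against 16.4% of all genes. In KO_RL against KO_OL, where 0.0196% rose and 0% fell, there were 0 and 1, against 4.81% of all genes. Voom on recovered reads called 0 members in both. *Bbs12* had the smallest p of the members in each. It was at 4.88, 5.85 and 5.78 CPM in WT_RL and 4.98, 5.38 and 4.83 CPM in KO_RL, so that every mouse lay above those of its own genotype after original learning, and the log2 fold changes were 0.37 ± 0.11 (SE, adjusted p of 0.154) and 0.37 ± 0.11 (SE, adjusted p of 0.574) in limma. Without WT_OL 3, the 1 of 6 libraries whose omission gave a call, it was called in WT, at 0.41 with an adjusted p of 0.0402 (limma). *Cfap36* stayed near its level after original learning, at 95.1, 93.4 and 85.8 CPM in WT_RL and 84.6, 94.5 and 91.1 CPM in KO_RL. *Ift172* was at 57.9, 50.7 and 63.7 CPM in WT_RL and 59.3, 67.9 and 61.6 CPM in KO_RL, and the KO_RL mice lay above the KO_OL mice. The change with reversal learning did not differ between genotypes for any member at an adjusted p under 0.05, nor for any of all genes (0% higher, 0% lower), and 0 members passed an unadjusted p under 0.05 there, against 7.98% of all genes.

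After training, no member was called between the genotypes. In KO_OL against WT_OL, where 0.0261% of all genes were called higher and 0.0391% lower, 0 members passed an unadjusted p under 0.05, against 2764 of all 15329 genes, and the smallest p was that of *Ift20*, with -0.26 ± 0.13 (SE) and an adjusted p of 0.286 (limma). Without WT_OL 3 its log2 fold change was -0.42, with an adjusted p of 0.0251 (limma). That was the 1 of 6 libraries whose omission gave a call. Over the 6 omissions the log2 fold change ran from -0.42 to -0.08. In KO_RL against WT_RL, where 0% of all genes were called higher and 0% lower, *Bbs1* and *Tekt5* had an unadjusted p under 0.05, against 4.93% of all genes. *Bbs1* was at 54.2, 52.4 and 52.3 CPM in WT_RL and 57.9, 64.6 and 59.2 CPM in KO_RL, with all KO mice above, and had 0.19 ± 0.07 (SE). Over the 3 training states together, where 0.0196% of all genes were called higher in KO and 0.013% lower, 1 member passed an unadjusted p under 0.05, against 8.36% of all genes. It was again *Bbs1*, with 0.10 ± 0.04 (SE) and an adjusted p of 0.551 (limma). Voom on recovered reads called 0 members in these 3 comparisons. The median over the motile axoneme genes was -0.19 in untrained, 0.07 in original learning and 0.10 in reversal learning mice. The choroid plexus markers had medians of -2.54, 0.46 and 1.12 in the same comparisons, with 0, 14 and 15 of 15 positive, and their part was not tested. The differences between the motile axoneme medians were not tested.

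Further genes of the same machinery were taken from fixed lists. Of 27 listed motors and further transport subunits, 3 rose and 7 fell in KO_OL against KO_Basal, where 11.2% of all genes rose and 12.3% fell. In WT_OL against WT_Basal 0 rose and 2 fell, against 3.88% and 5.62% of all genes. Those that rose in KO mice were *Kif3c* (0.29 ± 0.10, SE) and *Kif17* (0.33 ± 0.09), kinesins of transport towards the tip, and *Tulp3* (0.29 ± 0.10), which brings receptors into cilia with complex A. The largest fall was that of *Bbip1*, a small BBSome subunit, at 49.1, 54.6 and 50.1 CPM in KO_Basal and 33.5, 32.0 and 33.5 CPM in KO_OL, with -0.62 ± 0.07 (SE) and an adjusted p of 5.75e-05 (limma), and it also fell in WT mice (-0.32 ± 0.07). *Lztfl1*, which regulates the BBSome, fell in both genotypes as well (-0.35 ± 0.07 in KO and -0.30 ± 0.07 in WT). The others that fell in KO mice were the BBSome genes *Ttc8* (-0.31 ± 0.08) and *Arl6* (-0.28 ± 0.09), the complex B genes *Hspb11* (-0.43 ± 0.10) and *Ttc30a1* (-0.34 ± 0.09), and *Arl3* (-0.28 ± 0.08), a GTPase that releases lipidated cargo in cilia. Of 30 listed further genes of the motile axoneme and its assembly, 2 rose in KO_OL against KO_Basal, *Drc7* (2.09 ± 0.58) and *Ccdc65* (0.38 ± 0.12) of the nexin-dynein regulatory complex, against 11.2% of all genes, 0 fell, and the median was 0.34. *Drc7* was at 3.02, 4.84 and 3.84 CPM in KO_Basal, 15.5, 20.4 and 23.8 CPM in KO_OL and 2.41, 5.77 and 35.8 CPM in WT_RL. The choroid plexus markers, 15 of 15 of which rose in KO_OL, were low in KO_Basal and in WT_RL 1 too, and their part in the values of *Drc7* was not tested. In KO_Basal against WT_Basal, 27 of these 30 had a negative fold change, with a median of -0.20 and 0 called, while the 27 transport genes had a median of 0.01.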

How the data were processed

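RNA-seq libraries of 18 hippocampi were analysed as deposited. Paired-end reads had been aligned by the authors (mm10, STAR 2.5.1, with its count module) and scaled by TMM in edgeR 3.12.1. The deposited table holds log2 values of 15329 genes, described as CPM floored at 1. The values instead match log2(CPM + 1), since whole reads were recovered for 100% of values (tolerance 0.05 reads), and the tests were applied to that scale. The labels name a stranded kit, and the strand setting and annotation of the count were not stated.

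Libraries were grouped by their labels. Group means over all 18 libraries were fitted with limma 3.58.1 in R 4.3.3 (eBayes with trend, 12 residual degrees of freedom), with two-sided p-values adjusted over all 15329 genes. Every gene was above 0 in at least 6 libraries, and the filter asked for 3. The labels do not say more of the mice than their group. The p-values rest on the spread between mice within groups, pooled per gene over all 18 libraries. eBayes then drew it towards the spread of genes of like level. No libraries were duplicates: the chi-square per gene of same-group pairs was 8.77 or more. Precision is given by SD and SE over mice, and depth was 29248557 to 37915576 reads. On simulated data with planted changes the limma script was also tested.

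Positions, transcript length and GC content came from GENCODE M21 (GRCm38), which held 14769 symbols directly and 455 under a later symbol, with GC content for 99.3% of genes. Alternatives were another scale (CPM floored at 1), a pseudocount of 0.25, a mean of at least 1 CPM (13978 genes), voom on recovered reads and a replicate block. Further ones were the libraries of a comparison alone, a correction for GC content, and each library of a comparison left out in turn. Named with values were the called members, the 4 of each class with the highest level per kb or the largest range of group means, and a fixed list. *Tekt2*, *Tekt5*, *Dnah10*, *Cfap70*, *Ift43*, *Bbs5*, *Ift81* and *Dnah8* were named after their values were seen. The members and the lists of other genes were chosen with earlier results of these data known.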

Additional observations from a re-analysis of the deposited data

How the results depend on the processing

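Of 280 alternative counts of called members 261 were within 1.5 times the main count, of which 224 were 0 as before. In WT_OL against WT_Basal the 1 motile axoneme call became 0 with the libraries of the comparison alone and 0 with GC content corrected, and the 1 transport call became 3 with CPM floored at 1, 0 with those libraries alone and 0 with GC content corrected, and was 1 to 2 with each library left out in turn. In KO_OL against KO_Basal the 3 motile axoneme calls became 12 with those libraries alone and 1 with the libraries low in choroid plexus markers left out (chosen after seeing the data, with KO_Basal then 1 library), and were 1 to 4 with each library left out. The 7 transport calls became 3 with GC content corrected and 1 without the libraries low in choroid plexus markers, where the 8 lost motile axoneme and transport genes had log2 fold changes of 0.22 to 0.85 or -0.57 to -0.48 as against 0.23 to 0.90 or -0.54 to -0.42, and were 2 to 7 with each library left out. With each library left out, transport calls in WT_RL against WT_OL and in KO_OL against WT_OL were 0 to 2, with 2 in both without WT_OL 3. The named genes that changed sign were not called in these comparisons. *Tekt4* in KO_Basal against WT_Basal, at 0.02, was at -0.0082 with voom, -0.18 to 0.17 with each library left out and -0.086 without the libraries low in choroid plexus markers. In KO_OL against KO_Basal, GC correction gave 0.20 for *Bbs4* and 0.15 for *Ift88*, from -0.03 and -0.07, and *Ift172* in WT_OL against WT_Basal was at -0.029 to 0.21 with each library left out. The cause was not tested. Replicate numbers paired no samples: same-numbered libraries of different groups had correlations of deviations of -0.60 to 0.51, over 0.1 in 12 of 45 pairs. A replicate block left 3 and 7 calls in KO_OL against KO_Basal, 1 and 1 in WT_OL against WT_Basal and 0 elsewhere. There were 3 mice per group, and 6 motile axoneme genes were under 1 CPM. Differences such as that of -0.85 in *Cfap43* were not separated from the spread between mice, pooled over all 18 libraries. That of *Cfap43* was also not called with the libraries of the comparison alone (adjusted p of 0.0992, limma).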

Other observations

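Genes of signalling at the primary cilium of neurons were described from a list of 10, of which 8 had a positive log2 fold change in KO_OL against KO_Basal, with a median of 0.27, and 2 were called higher, while 11.2% of all genes were. Of 8 markers of hippocampal neurons 6 had a positive log2 fold change there, with a median of 0.25, 2 called higher and 1 lower, and their sum was 2053 to 2450.1 CPM in KO_Basal and 2637 to 3314 CPM in KO_OL. Their part in the values below was not tested. *Adcy3*, the adenylyl cyclase that marks neuronal primary cilia, was at 52.2, 52.4 and 52.8 CPM in KO_Basal and 73.1, 72.8 and 75.7 CPM in KO_OL, without overlap, and rose by 0.48 ± 0.12 (SE, log2), adjusted p = 0.0087 (limma). *Mchr1*, the receptor for melanin-concentrating hormone, was at 15.7, 16.1 and 17.3 CPM and 21.8, 19.6 and 21.2 CPM, also without overlap, and rose by 0.33 ± 0.10 (SE, log2), adjusted p = 0.0295 (limma). In WT_OL against WT_Basal 0 of the 10 were called, with a median of 0.15. *Adcy3* was at 53.7, 57.9 and 52.3 CPM in WT_Basal and 61.5, 45.6 and 72.1 CPM in WT_OL, where WT_OL 2 lay below and the other 2 above every untrained mouse.

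Of 9 listed transcription factors of cilia genes, 2 rose in KO_OL against KO_Basal, while 11.2% of all genes did. *Trp73*, which acts upstream of *Foxj1*, was at 3.91, 2.79 and 4.49 CPM in KO_Basal and 7.05, 6.21 and 8.69 CPM in KO_OL, and rose by 0.82 ± 0.22 (SE, log2), adjusted p = 0.0127 (limma). *Rfx2* was at 3.81, 3.26 and 3.03 CPM and 5.12, 5.16 and 6.73 CPM, and rose by 0.61 ± 0.20 (SE, log2), adjusted p = 0.0396 (limma). Neither overlapped between the groups. In the same comparison *Foxj1* had 0.86 ± 0.36 (SE, log2) and an adjusted p of 0.0947 (limma). The sums of choroid plexus markers given above differed between the same mice, and their part in these values was not tested. Of the list, 0 genes were called in WT_OL against WT_Basal.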
